A study of Mus musculus with 7 samples.

Results

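Cytokines, chemokines and their receptors were followed in cultured mouse myoblasts, dividing cells of the muscle lineage whose fusion builds new fibres. The 42 genes were listed by name: 14 chemokines, 10 other cytokines of the interleukin, gp130 and related families, 12 interleukin and gp130 cytokine receptors, 5 genes of the TNF family and Ptgs2, the inducible enzyme of prostaglandin synthesis. Of these, 40 were measured among 18193 genes, and Il11ra1 and Il1rl1 were not analysed here. Each gene was represented by the probe set with the highest mean over all samples. The samples were myoblasts from Hmga2 KO mice (HMGA2 -/-, 4 samples, replicates 1 and 3 male and replicates 2 and 4 female) and from wild type mice (3 samples, all female), all of the C57BL/6 background and with no treatment. The chromatin protein that Hmga2 encodes binds AT-rich DNA. How the allele was made, the age of the mice, and whether each sample came from a single animal are not stated in the labels.

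Cytokines are small secreted proteins that bind receptors on the same or neighbouring cells. The chemokines among them attract leukocytes along a gradient and are classed by the spacing of their conserved cysteines (CC, CXC, CX3C). Interleukin 6, interleukin 11, LIF and cardiotrophin-like cytokine act through receptors that share the gp130 chain, encoded by Il6st, and signal through JAK kinases and STAT3. Interleukin 1 and TNF receptors signal mainly through NF-kB. In injured muscle, cytokines from infiltrating leukocytes, stromal cells and the muscle cells themselves act on satellite cells and myoblasts, and prostaglandins made by way of Ptgs2 affect myoblast growth and fusion.

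The 7 Affymetrix arrays had been scaled to a median intensity of 150, with lowest values of 33.2 to 36.7. Hmga2 read 85.7 to 104 in Hmga2 KO and 9998 to 12800 in wild type, as the labels have it. Of 9 myoblast markers 8 had a mean above 100 and Msc was dim, and their summed intensity was 43063 to 57089.8 in Hmga2 KO and 51378 to 56557 in wild type. For a limit of background, 9 probe sets of Y-linked genes were read in the 5 female samples, where the highest value was 58.2. By their mean log2 value over all 7 samples 37 of the 40 members (92.5%) lay above this limit, as did 87.6% of all genes, so the limit is lenient. Ccl5, Cxcl5 and Cxcl14 lay below it, and 25 members had a mean above an intensity of 100. Because dim probe sets include a floor of unspecific signal, differences of dim members are understated. In RNA from a whole culture, fewer cells of a type and less RNA per cell cannot be told apart.

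Between the genotypes, Ptgs2 and Il13ra1, a receptor chain for interleukins 4 and 13, were both 1.97-fold higher on average in Hmga2 KO than in wild type. Il1r1, the signalling receptor of interleukin 1, was 1.42-fold lower, and Il15ra, Il34 and Tslp were 1.31-fold, 1.27-fold and 1.25-fold lower. None of these differences passed an adjusted p of 0.05 with limma. Of the 40 members 0 passed, against 0.0275% of all genes, and the smallest adjusted p of a member was 0.293. At an unadjusted p under 0.05 there were 6 members (15%), against 13.3% of all genes. Of these, 2 were higher (5%), against 2.99% of all genes, and 4 were lower (10%), against 10.3%. The groups did not overlap for 4 members (10%), against 11.7% of all genes. Ptgs2 was the 1 member wholly higher (2.5%, against 2.37% of all genes), and Tslp, Il1r1 and Il15ra were wholly lower (7.5%, against 9.29%). These shares lie near the background. The median difference of the members was 0.04 on the log2 scale, with 22 higher and 18 lower, while over all genes it was -0.07, with 5901 higher and 12292 lower. Among the 5 females alone 0 members passed by limma, against 0.0275% of all genes, and 5 (12.5%) had an unadjusted p under 0.05, against 6.85% of all genes, namely Lifr, higher in Hmga2 KO, and Il34, Tslp, Il4ra and Tnfsf11, lower. For 12 of the 40 members the sign among females was opposite to that over all samples, namely Ccl2, Ccl7, Ccl8, Ccl9, Cxcl1, Cxcl5, Cx3cl1, Il11, Lif, Il33, Il15 and Tnfsf11.

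**Figure D1:**
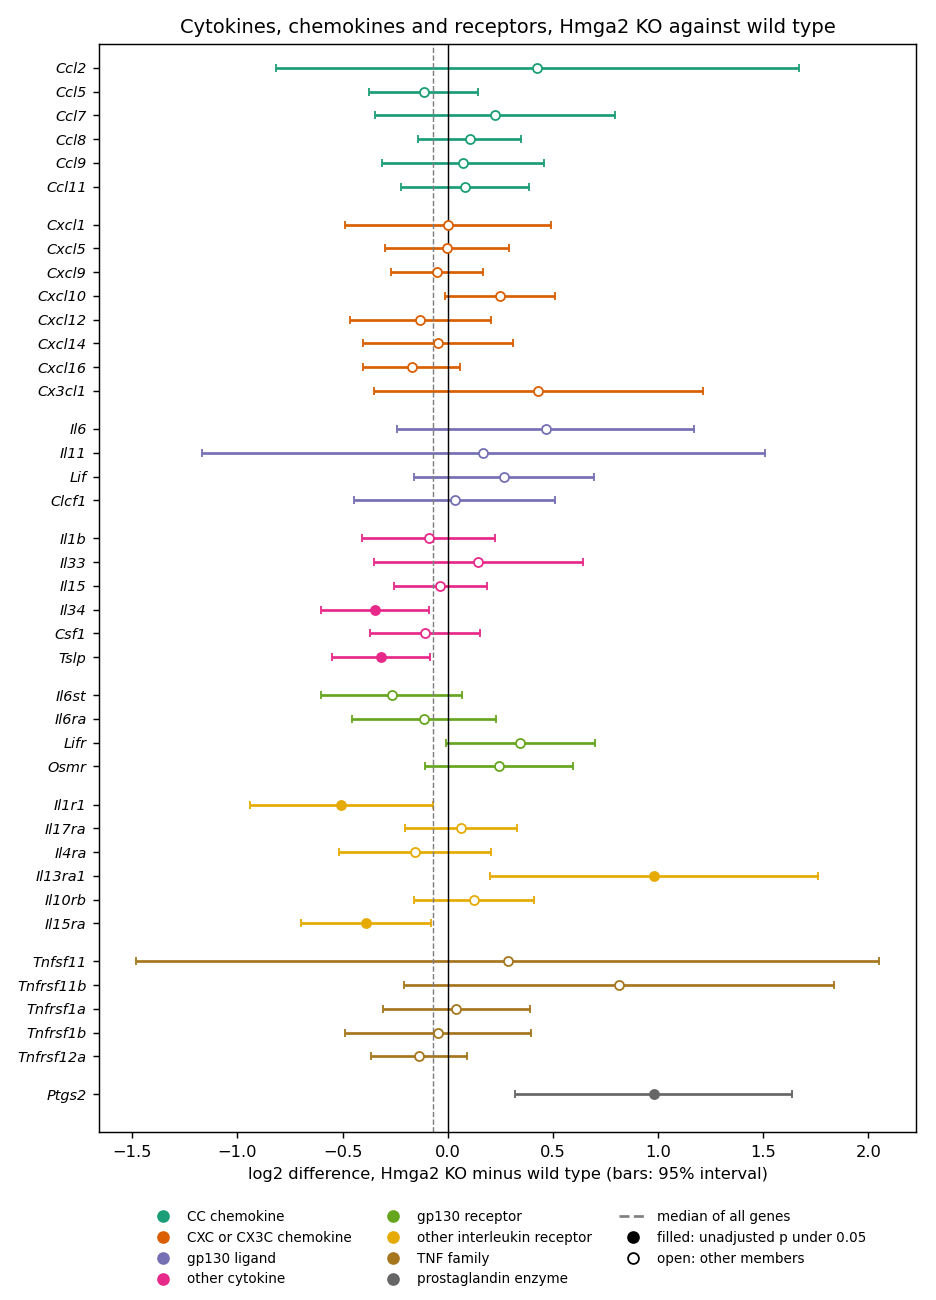
Log2 difference (Hmga2 KO minus wild type) of each of the 40 measured members with its 95% interval from limma, coloured by role group. Filled points mark the 6 members with an unadjusted p under 0.05, and the dashed line marks the median of all genes, -0.07. The intervals of Ptgs2 and Il13ra1 lie to the right of 0, and those of Il1r1, Il15ra, Il34 and Tslp to the left.

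Among CC chemokines, which attract monocytes, eosinophils and T cells, all 6 averaged below the array median of 150. Ccl2, the monocyte chemoattractant, had intensities of 260.4, 51.0, 107 and 104 in Hmga2 KO replicates 1 to 4, against 175, 49.7 and 63.0 in wild type replicates 1 to 3. The values of Ccl7, its neighbour in the genome and a ligand of overlapping receptors, were 89.3, 48.4, 73.8 and 64.7 in Hmga2 KO and 85.6, 45.4 and 49.0 in wild type. Both were highest in replicate 1 of each group, and the groups overlapped. The difference was 0.43 for Ccl2 (SE 0.55, adjusted p = 0.761) and 0.23 for Ccl7 (SE 0.25, adjusted p = 0.719). Among females both were below 0, at -0.16 for Ccl2 and -0.04 for Ccl7. Ccl9, a chemokine of myeloid cells, read 126, 89.0, 121 and 104 in Hmga2 KO and 104, 129 and 83.3 in wild type. Its difference of 0.07 (95% interval -0.31 to 0.46) was smaller than the spread within either group, and its sign turned under 3 other settings. Ccl8 ranged over 90.8 to 116 in Hmga2 KO and 89.7 to 100.1 in wild type, and Ccl11, the eosinophil chemoattractant eotaxin, over 69.2 to 99.6 in Hmga2 KO and 75.2 to 89.8 in wild type. Ccl5, an attractant of T cells, stayed between 38.4 and 52.8 in all samples and so below the limit of background.

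CXC chemokines include Cxcl12, which retains and guides cells bearing Cxcr4, and neutrophil attractants such as Cxcl1. Cxcl12 was bright in all samples, with 5274, 4408, 4910.4 and 4380.2 in Hmga2 KO replicates 1 to 4, against 5611, 4065 and 6085 in wild type replicates 1 to 3. The groups overlapped, and its difference was -0.13 (SE 0.15, 95% interval -0.47 to 0.20, adjusted p = 0.722). On the other probe sets of Cxcl12 the difference had the opposite sign, 0.12 and 0.29. Cxcl10, an interferon-induced ligand of Cxcr3, read 101, 101, 97.2 and 83.4 in Hmga2 KO and 72.1, 91.1 and 78.6 in wild type. Here 3 Hmga2 KO samples lay above all wild type samples and replicate 4 lay within their range, with a difference of 0.25 (SE 0.12, adjusted p = 0.394). Cxcl16, made as a membrane-bound and a shed form, ranged over 102 to 125 in Hmga2 KO and 117 to 134 in wild type. Cxcl9, another ligand of Cxcr3, ranged over 67.5 to 76.2 in Hmga2 KO and 68.3 to 80.7 in wild type. Cxcl5 and Cxcl14 had no mean above the limit of background, with highest values of 64.1 and 67.3.

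Cx3cl1, the membrane-anchored chemokine fractalkine, had 498, 189.7, 219.8 and 165 in Hmga2 KO and 224, 139 and 184 in wild type. Hmga2 KO replicate 1 stood above the other 6 samples, which spanned 139 to 224. The difference over all samples was 0.43 (SE 0.35, adjusted p = 0.600), and among the 5 females it was -0.02. Cxcl1 had 105, 57.0, 83.1 and 79.5 in Hmga2 KO and 105, 66.9 and 70.7 in wild type, so that its group means of 81.1 in Hmga2 KO and 80.8 in wild type lay closer together than the samples within a group.

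The promoters of Cxcl1 and Il6 are shown because both genes had their highest value of each group in replicate 1 and both windows hold the kB letters, a form of the site that NF-kB binds. The letters are GGG, then any 3 bases, then TTCC. Each window, from RefSeq in the build GRCm38.p6, runs from 250 bases before to 50 bases after the annotated start, for Cxcl1 at chr5:90890995-90891294, plus strand, and for Il6 at chr5:30012864-30013163, plus strand. Capitals mark every match on either strand to the kB letters, to the AP-1 letters TGANTCA, to the CRE core TGACGT and to the TATA letters TATAAA.
Cxcl1: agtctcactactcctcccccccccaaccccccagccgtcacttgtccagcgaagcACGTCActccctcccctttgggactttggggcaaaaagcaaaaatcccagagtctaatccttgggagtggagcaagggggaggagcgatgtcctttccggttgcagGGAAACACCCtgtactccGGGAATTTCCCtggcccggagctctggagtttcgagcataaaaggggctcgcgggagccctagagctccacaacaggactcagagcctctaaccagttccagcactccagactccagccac
Il6: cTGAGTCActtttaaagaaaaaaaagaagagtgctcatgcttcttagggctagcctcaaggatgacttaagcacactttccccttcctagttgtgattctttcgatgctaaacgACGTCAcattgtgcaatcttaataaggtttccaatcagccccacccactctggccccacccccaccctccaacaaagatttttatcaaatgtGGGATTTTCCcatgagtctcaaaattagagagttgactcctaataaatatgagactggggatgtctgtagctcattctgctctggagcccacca
In Cxcl1 the kB matches begin 89, 71 and 70 bases before the start, the last pair overlapping on opposite strands, and in Il6 the kB match begins 44 bases before it. Of the 32 promoters listed for 27 measured members, 7 (21.9%) hold the kB letters, against 5.56% of all 32851 promoters. The AP-1 letters are in 8 member promoters (25%), against 7.81% of all promoters. The genes with a kB match were Ccl9, Csf1, Cxcl1, Cxcl10, Il1r1, Il4ra and Il6, which include members higher and lower in Hmga2 KO. Cx3cl1, Il11 and Tnfsf11 were also highest in replicate 1 of each group, and their listed promoters hold no kB match. A match is a string of letters and not a measured binding site.

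**Figure D2:**
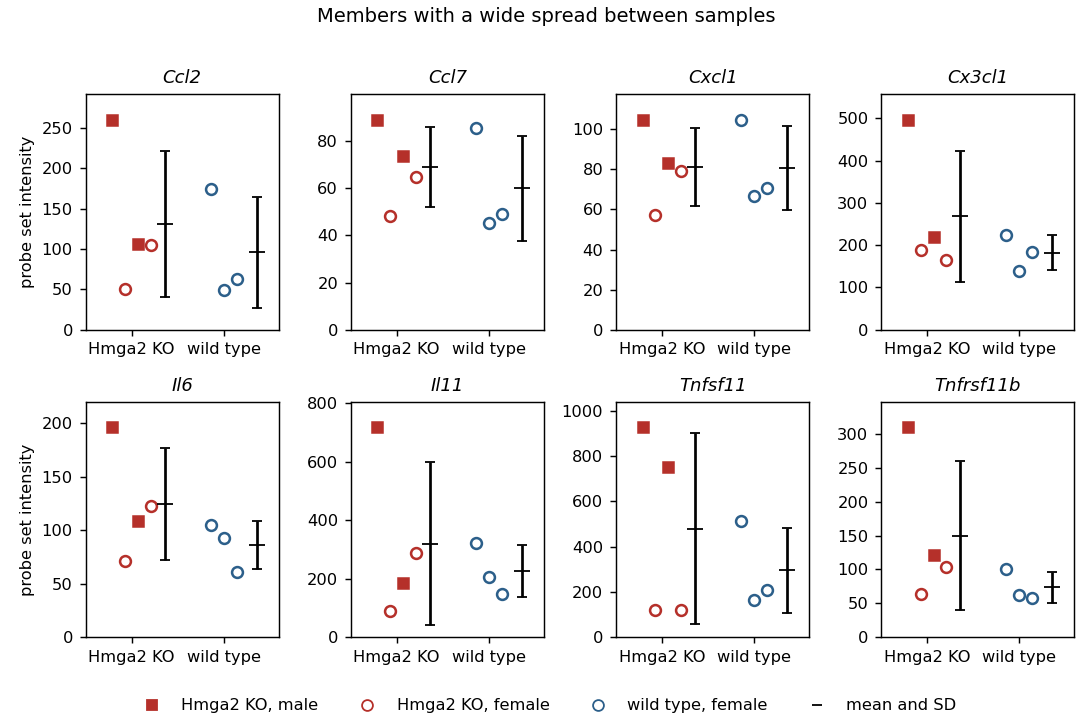
Probe set intensity (linear scale) of 8 members chosen after their values were seen, with Hmga2 KO on the left and wild type on the right of each panel. Squares are males, circles females, and bars give the mean and SD. Hmga2 KO replicate 1, the leftmost square, is the highest Hmga2 KO sample in every panel, and the leftmost circle of wild type, replicate 1, is the highest wild type sample.

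The 4 ligands of gp130 receptors all had a mean above background. Il6, the founding member, read 196, 70.7, 108 and 123 in Hmga2 KO replicates 1 to 4, against 105, 92.7 and 61.4 in wild type replicates 1 to 3. The groups overlapped, and the difference was 0.47 (SE 0.31, adjusted p = 0.529), with 0.15 among females. Il11, a gp130 cytokine known from fibroblasts and bone, spanned a wider range, with 719, 90.1, 184 and 288 in Hmga2 KO and 324, 207 and 149 in wild type. Hmga2 KO replicates 1 and 2 were the highest and the lowest of all 7 samples, 7.98-fold apart. Its difference was 0.17 over all samples (adjusted p = 0.918) and -0.42 among females. Lif, which keeps myoblasts dividing in culture, had 174, 117, 158 and 109.9 in Hmga2 KO and 110.3, 139 and 96.0 in wild type (difference 0.27, adjusted p = 0.551, and -0.00420 among females). Clcf1, cardiotrophin-like cytokine, had 633, 629, 584 and 782 in Hmga2 KO and 526, 950.0 and 520.0 in wild type. Wild type replicate 2 was the highest here, and the difference of 0.03 (95% interval -0.44 to 0.51) changed sign when single samples were left out.

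Of the other secreted cytokines, the ligands of the macrophage receptor Csf1r were both well measured. Csf1, which macrophages need for survival, had 7219, 5942, 5914 and 6024 in Hmga2 KO replicates 1 to 4, against 6305, 6311 and 7684 in wild type replicates 1 to 3. The groups overlapped with a difference of -0.11 (SE 0.12, 95% interval -0.37 to 0.16, adjusted p = 0.708). On the other Csf1 probe sets the difference was -0.05, 0.03 and 0.03. Il34, the other ligand of this receptor, had 228, 189.7, 201 and 188 in Hmga2 KO and 226, 282 and 263 in wild type. Hmga2 KO replicate 1 lay just above wild type replicate 1, and the other 3 Hmga2 KO samples lay below all wild type samples. Its difference was -0.35 (SE 0.11, unadjusted p = 0.0138, adjusted p = 0.298) and -0.44 among females.

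Tslp, an epithelial and stromal cytokine that acts on dendritic cells, had 197, 181, 169.8 and 188 in Hmga2 KO and 254, 207 and 229 in wild type. The groups did not overlap, and the difference was -0.32 (SE 0.10, unadjusted p = 0.0131, adjusted p = 0.297), with -0.31 among females. Il33, an alarmin of the interleukin 1 family, ranged over 71.2 to 147 in Hmga2 KO and 78.3 to 96.5 in wild type, the top value belonging to Hmga2 KO replicate 3. Il1b, a product mainly of myeloid cells, ranged over 70.9 to 94.5 in Hmga2 KO and 75.3 to 105 in wild type. Il15, abundant in muscle as a survival signal for lymphocytes, ranged over 64.8 to 78.6 in Hmga2 KO and 68.2 to 73.5 in wild type. These 3 lay below an intensity of 100 on average.

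**Figure D3:**
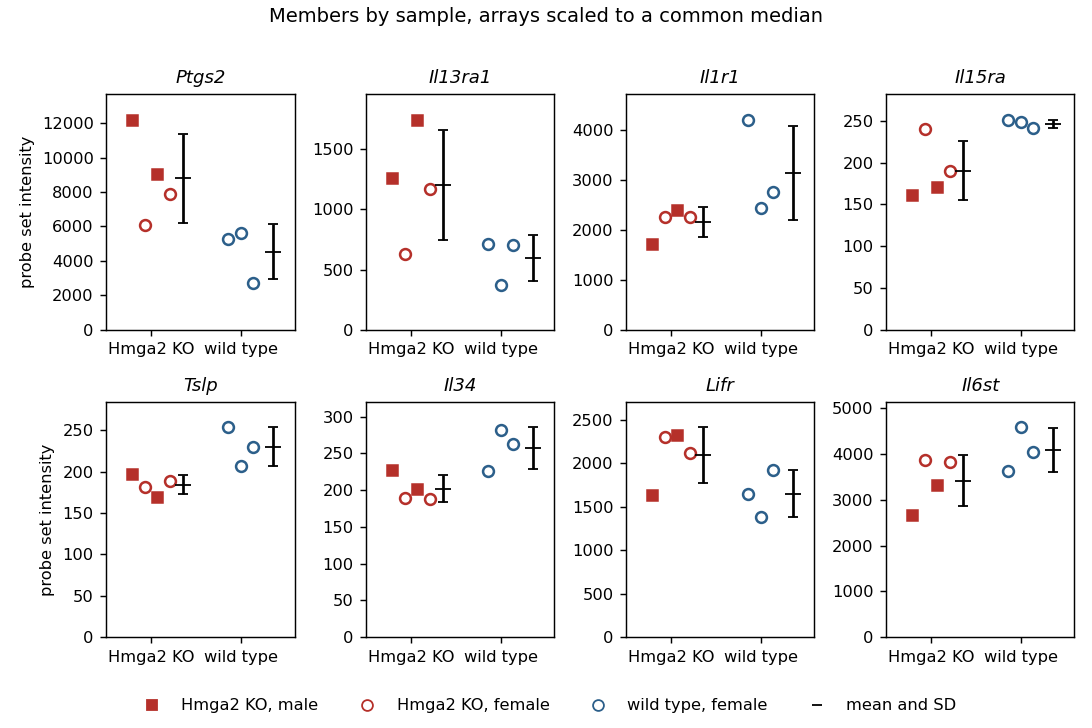
Probe set intensity (linear scale from 0) of the 6 members with an unadjusted p under 0.05 and of the gp130 receptor genes Lifr and Il6st, with Hmga2 KO left of wild type. Squares are males, circles females, and bars give the mean and SD. Every Hmga2 KO sample lies above every wild type sample for Ptgs2 and below it for Il1r1, Il15ra and Tslp.

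Of the 4 measured receptor genes for gp130 cytokines 2 were higher and 2 lower, none past the threshold. Il6st, the shared signalling chain, had 2666, 3865, 3324 and 3830.4 in Hmga2 KO replicates 1 to 4, against 3638, 4590.0 and 4049 in wild type replicates 1 to 3. The lowest value belonged to Hmga2 KO replicate 1, and the difference was -0.27 (SE 0.15, adjusted p = 0.456) over all samples and -0.08 among females. Another Il6st probe set had the opposite sign, 0.35, with 709.6, 846, 904 and 848 in Hmga2 KO and 796, 585 and 573 in wild type, where the groups also overlapped. Lifr, the chain that LIF binds, had 1636, 2307, 2323 and 2123 in Hmga2 KO and 1645, 1385 and 1923 in wild type. In 3 of 4 Hmga2 KO samples it lay above all wild type samples, and replicate 1 lay among the wild type values. Its difference was 0.34 (SE 0.16, adjusted p = 0.385), with 0.44 among females, and its dim probe sets had -0.05 and -0.20. Osmr, the oncostatin M receptor, had 173, 207, 241 and 167 in Hmga2 KO and 145, 195 and 157 in wild type (difference 0.25, adjusted p = 0.507). Il6ra, the chain that gives a cell its own response to interleukin 6, was dim, with 69.2 to 92.7 in Hmga2 KO and 73.1 to 99.8 in wild type.

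Il1r1 had 1723, 2258, 2399 and 2259 in Hmga2 KO replicates 1 to 4, against 4204, 2442 and 2747 in wild type replicates 1 to 3. All Hmga2 KO samples lay below all wild type samples, although the gap between the nearest samples, 2399 in Hmga2 KO replicate 3 and 2442 in wild type replicate 2, was narrow. The mean intensity was 2160.1 ± 299 (SD, n = 4) in Hmga2 KO and 3131 ± 942 (SD, n = 3) in wild type. On the log2 scale the difference was -0.51 (SE 0.19, unadjusted p = 0.0278, adjusted p = 0.332), and without wild type replicate 1, the highest sample, it was -0.27 (adjusted p = 0.398). Its other probe set read 35.7 in Hmga2 KO and 38.7 in wild type on average, at the floor of the array.

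The receptor chain gene with the largest difference was Il13ra1, which lies on the X chromosome and had 1261, 625, 1748 and 1172 in Hmga2 KO replicates 1 to 4, against 709, 371 and 706 in wild type replicates 1 to 3. Hmga2 KO males had the highest values and Hmga2 KO replicate 2 lay within the wild type range, so the groups overlapped. The difference was 0.98 (SE 0.34, unadjusted p = 0.0190, adjusted p = 0.307), and 0.58 among females (adjusted p = 0.770). All 5 of its probe sets read higher in Hmga2 KO on average, by 0.98, 1.05, 0.55, 0.60 and 0.30. Il4ra, its partner in the receptor for interleukins 4 and 13, differed by -0.15 (adjusted p = 0.694), with 688, 475, 535 and 453 in Hmga2 KO and 577, 522 and 683 in wild type.

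Il15ra, which presents interleukin 15 to other cells, had 161, 239.9, 171 and 189.6 in Hmga2 KO and 251, 249 and 241 in wild type. The 3 wild type samples lay close together and above all Hmga2 KO samples, of which replicate 2 was nearly as high. Its difference was -0.39 (SE 0.14, unadjusted p = 0.0193, adjusted p = 0.308) on this probe set and -0.01 on the dimmer one, and among females it was -0.21 (unadjusted p = 0.173). Il17ra, the shared interleukin 17 receptor chain, ranged over 657 to 759 in Hmga2 KO and 587 to 787 in wild type. Il10rb, a chain shared by receptors of the interleukin 10 family, ranged over 355 to 446 in Hmga2 KO and 312 to 397 in wild type. Their differences of 0.06 and 0.13 were within the spread of the samples. A dimmer Il17ra probe set differed by -0.19, with overlapping groups.

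Among TNF family genes, Tnfrsf12a, the receptor of TWEAK, which is known to act on myoblasts, was bright in all samples. It had 6346, 5296, 5850.1 and 5289 in Hmga2 KO replicates 1 to 4, against 6365, 6496 and 5887 in wild type replicates 1 to 3, with overlapping groups and a difference of -0.14 (SE 0.10, 95% interval -0.36 to 0.09, adjusted p = 0.566). The TNF receptors Tnfrsf1a and Tnfrsf1b differed by 0.04 and -0.05, with ranges of 1030.2 to 1397 in Hmga2 KO and 945 to 1377 in wild type for the first and 646 to 845 in Hmga2 KO and 545 to 945 in wild type for the other. Tnfsf11, the osteoclast-inducing ligand RANKL, had 928, 119, 751 and 122 in Hmga2 KO and 513, 166 and 206 in wild type. Its difference was 0.29 over all samples (adjusted p = 0.894) and -1.11 among females (unadjusted p = 0.0304, adjusted p = 0.697). Tnfrsf11b, which encodes its decoy receptor osteoprotegerin, had 310.2, 64.2, 122 and 104 in Hmga2 KO and 100.3, 62.8 and 57.3 in wild type. For Tnfrsf11b the difference of 0.81 had an SE of 0.45 (adjusted p = 0.456). Hmga2 KO replicate 1 was far above every other sample, and without it the difference was 0.38, and among females 0.19. The other probe set of Tnfrsf11b was dim and differed by 0.22. It read 82.4, 83.2, 78.0 and 73.5 in Hmga2 KO and 69.2, 64.0 and 71.1 in wild type, and there the groups did not overlap.

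Ptgs2 had the smallest unadjusted p of the members, and its promoter is shown for that reason, from RefSeq in the build GRCm38.p6 at chr1:150099781-150100080, plus strand, with the same window and capitals as above.
Ptgs2: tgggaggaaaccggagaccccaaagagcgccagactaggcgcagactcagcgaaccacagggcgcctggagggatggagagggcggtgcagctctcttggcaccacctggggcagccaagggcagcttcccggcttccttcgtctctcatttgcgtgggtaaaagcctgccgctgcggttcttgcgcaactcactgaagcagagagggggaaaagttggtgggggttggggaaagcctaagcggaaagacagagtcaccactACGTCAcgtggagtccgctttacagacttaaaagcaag
Of the 4 sets of letters searched, the window holds the CRE core, a form of the site of cyclic AMP-responsive factors, once, beginning 12 bases after the annotated start. The CRE core is in 3 of the 32 member promoters (9.38%), against 7.51% of all promoters. Intensities of Ptgs2 were 12215, 6066, 9064 and 7861 in Hmga2 KO replicates 1 to 4, against 5253, 5647 and 2725 in wild type replicates 1 to 3. Every Hmga2 KO sample lay above every wild type sample, with replicate 2 of each group closest, and the mean was 8801 ± 2588 (SD, n = 4) in Hmga2 KO and 4541 ± 1586 (SD, n = 3) in wild type. The difference was 0.98 on the log2 scale (SE 0.29, 95% interval 0.32 to 1.64, unadjusted p = 0.00828, adjusted p = 0.293). A dimmer probe set differed by 1.08, with 741, 271, 488 and 228 in Hmga2 KO and 227, 253 and 106 in wild type, where the groups overlapped. Among females the difference was 0.68 (adjusted p = 0.725), and without wild type replicate 3, the lowest sample, it was 0.65.

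The enzymes and receptors around Ptgs2 were counted next, from a list of 15 prostaglandin genes of which 13 were measured. By limma 0 passed the adjusted threshold, and 5 (38.5%) had an unadjusted p under 0.05, 2 higher and 3 lower in Hmga2 KO, against 13.3% of all genes. Of all genes 2.99% were higher and 10.3% lower at this p. The list was chosen with earlier results of these data known, so its share is not independent of them. Ptgis, the synthase of prostacyclin, had 154, 184, 121 and 115 in Hmga2 KO replicates 1 to 4, against 286, 279 and 423 in wild type replicates 1 to 3. The groups did not overlap, and Ptgis was 2.28-fold lower in Hmga2 KO (difference -1.19, SE 0.20, adjusted p = 0.189), with -1.14 among females. Ptgir, the prostacyclin receptor, had 81.6, 85.6, 91.3 and 93.1 in Hmga2 KO and 105, 110.0 and 135 in wild type, 1.32-fold lower (adjusted p = 0.284). Ptges2, a prostaglandin E synthase, had 379.7, 392, 431 and 386 in Hmga2 KO and 448, 541 and 507 in wild type, 1.25-fold lower (adjusted p = 0.293). The groups did not overlap for either gene.

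Pla2g4a and Ptges were chosen after their values were seen. Pla2g4a, the phospholipase that releases arachidonic acid for Ptgs2, had 4112, 2334, 3123 and 2819 in Hmga2 KO and 1756, 2492 and 1341 in wild type (difference 0.75, adjusted p = 0.293). Ptges, the inducible prostaglandin E synthase, had 506, 148, 294 and 129 in Hmga2 KO and 149, 118 and 88.5 in wild type (difference 0.99, adjusted p = 0.374), and both male samples lay above all females. Among females the difference of Ptges was 0.25.

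**Figure D4:**
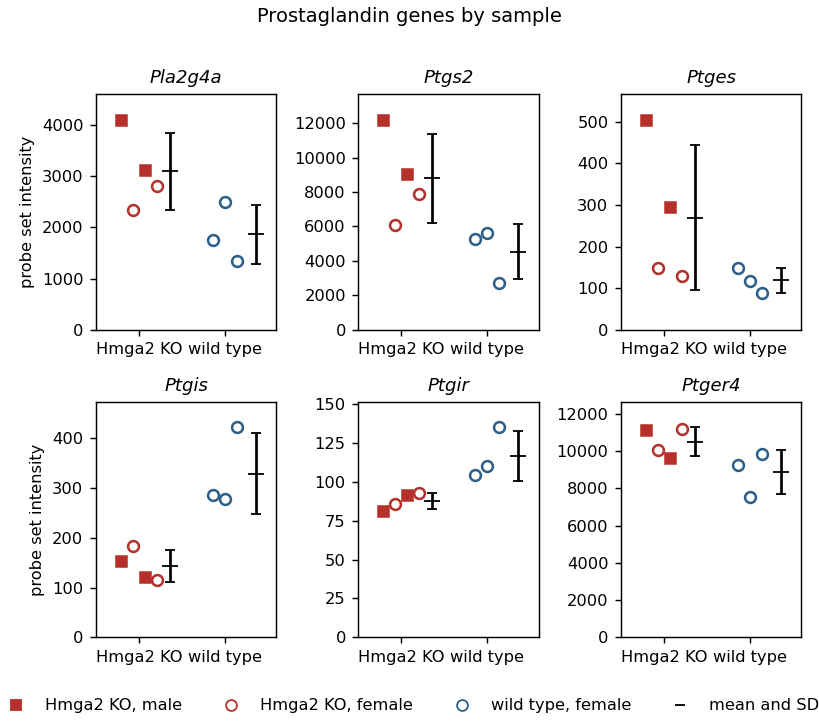
Probe set intensity (linear scale from 0) of 6 prostaglandin genes, with Hmga2 KO left of wild type, squares for males, circles for females, and bars for the mean and SD. For Ptgs2 every Hmga2 KO sample lies above the wild type samples, for Ptgis and Ptgir every Hmga2 KO sample lies below them, and for Pla2g4a, Ptges and Ptger4 the groups overlap.

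Because all wild type samples were female, males and females were also compared within Hmga2 KO, with 2 samples each. Of the 40 members 0 passed an adjusted p of 0.05 by limma, against 0.0385% of all genes, and 7 (17.5%) had an unadjusted p under 0.05, against 6.3% of all genes. Of the 7, Tnfsf11, Tnfrsf11b, Cx3cl1, Lif and Il33 were higher in males, which is 12.5% of the members against 2.65% of all genes, and Il15ra and Il6st were lower (5%, against 3.65%). In males, Tnfrsf11b was higher by 1.24, Cx3cl1 by 0.90, Lif by 0.54 and Il33 by 0.63, and the differences of Il15ra and Il6st were -0.36 and -0.37. In place of 7 members there were 3 without Hmga2 KO replicate 1 and 3 without replicate 2, settings chosen after seeing the data in which the lone sample left of that sex is assumed to vary like the other groups. Both males lay above both females for 18 members (45%), against 12.7% of all genes, and below them for 3 (7.5%), against 24.1%. Hmga2 KO replicate 1, a male, was the highest of the 4 Hmga2 KO samples for 25 members (62.5%), against 27.2% of all genes. With 2 samples of each sex, a difference of sex and one of this sample cannot be told apart. Over the members the median difference was 0.18 on the log2 scale, and over all genes it was -0.04.

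Tnfsf11 had the largest difference of the members between the sexes, with 928 and 751 in male Hmga2 KO samples, against 119 and 122 in female Hmga2 KO samples. Its difference was 2.78 (6.89-fold, SE 0.44, adjusted p = 0.182). The wild type females had 513, 166 and 206, so that wild type replicate 1 lay between the sexes of Hmga2 KO. Without this sample Tnfsf11 passed (adjusted p = 0.00175), and over all settings tried its adjusted p ranged from 0.00175 to 0.737. On a dim second probe set the difference was 0.83. The Tnfsf11 promoter, from RefSeq in the build GRCm38.p6 at chr14:78307994-78308293, minus strand, is shown for that reason.
Tnfsf11: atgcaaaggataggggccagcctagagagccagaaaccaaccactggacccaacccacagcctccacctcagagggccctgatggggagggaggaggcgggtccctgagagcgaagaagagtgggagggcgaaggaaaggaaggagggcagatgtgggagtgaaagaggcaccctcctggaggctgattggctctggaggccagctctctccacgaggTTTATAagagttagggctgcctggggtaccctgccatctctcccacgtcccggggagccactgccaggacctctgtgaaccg
It holds the TATA letters on the opposite strand, beginning 32 bases before the annotated start, and none of the other letters searched. The TATA letters are in 8 of the 32 member promoters (25%), against 13.6% of all promoters.

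The members also varied with single samples. Hmga2 KO replicate 1 was the highest of all 7 samples for 13 members (32.5%), while it was the highest for 11.9% of all genes. Those 13 were Ccl2, Ccl7, Ccl8, Cxcl10, Cxcl14, Cx3cl1, Il6, Il11, Lif, Il4ra, Tnfsf11, Tnfrsf11b and Ptgs2. For 9 members (22.5%) replicate 1 was the highest in both groups, against 7.22% of all genes, namely Ccl2, Ccl7, Cxcl1, Cx3cl1, Il6, Il11, Tslp, Tnfsf11 and Tnfrsf11b. This pattern was noticed after the values were seen and carries no test.

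**Figure D5:**
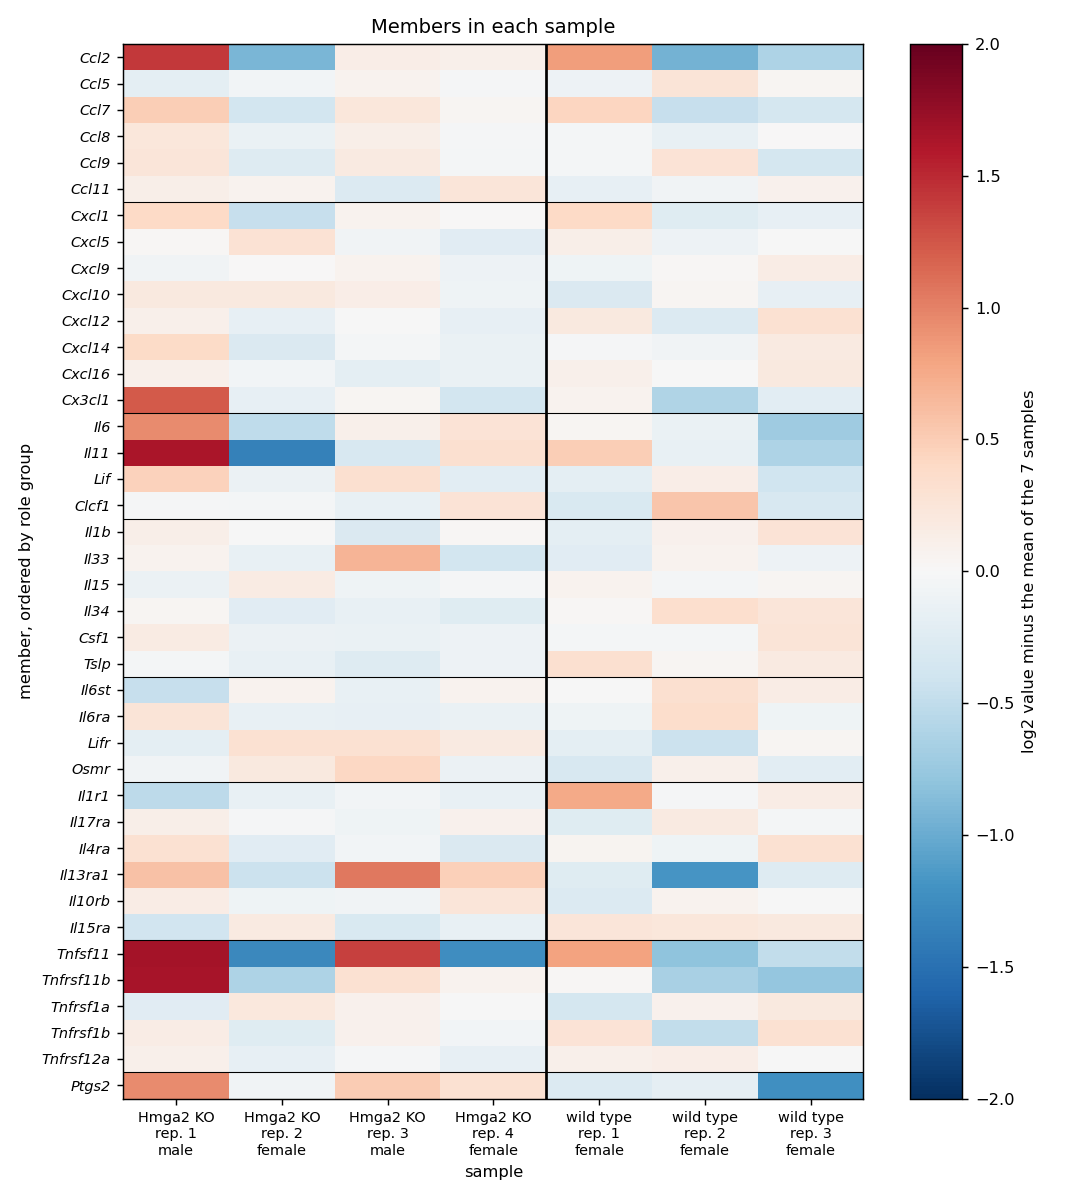
Log2 value of each measured member minus its mean over the 7 samples (colour), with samples in columns, Hmga2 KO on the left, and members in rows by role group. The first column, Hmga2 KO replicate 1, holds the highest value of 13 members, among them Ccl2, Cx3cl1, Il6, Il11 and Tnfrsf11b.

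Markers of other cells were read beside this pattern, and their part in it was not tested. Pdgfra, a receptor that marks fibro-adipogenic progenitors, had 620.0, 189, 195 and 200.1 in Hmga2 KO replicates 1 to 4, against 383, 137 and 133 in wild type replicates 1 to 3, and so was also highest in replicate 1 of both groups. Cd34, found on such progenitors and on quiescent satellite cells, had 527, 93.8, 114 and 110.3 in Hmga2 KO and 174, 101 and 159 in wild type. Pdgfra and Cd34 were chosen after their values were seen, and some other fibroblast markers went the other way. Mgp had 4004, 5167, 4336 and 4819 in Hmga2 KO and 2495, 2841 and 2914 in wild type. Islr had 1196, 2385, 1678 and 1880 in Hmga2 KO and 799, 1329 and 931 in wild type. Mgp and Islr were lowest in replicate 1 of each group. Summed over 15 fibroblast markers the intensity was 17689.9 to 21436 in Hmga2 KO and 15516 to 16482 in wild type, with 0 past the adjusted threshold, 4 at an unadjusted p under 0.05 (Mgp, Smoc2, Islr and Dcn, all higher in Hmga2 KO; 26.7%, against 2.99% of all genes higher), and 14 of 15 above the median of all genes. Among the Hmga2 KO samples this sum was lowest in replicate 1, at 17689.9. The sum and the counts include Tcf4, the brightest of the 15, which is not specific to fibroblasts. Tcf4 had 6920, 9379, 8992 and 9269 in Hmga2 KO replicates 1 to 4, against 8067, 8732 and 7680 in wild type replicates 1 to 3, with overlapping groups. Whether the order of the sums follows fibroblast content was not tested. The myoblast marker sum was also lowest in Hmga2 KO replicate 1, at 43063.

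Leukocytes are the main source of several members, so 23 leukocyte markers were examined. Their summed intensity was 2211 to 2749 in Hmga2 KO and 2325 to 2664 in wild type, 17 had a mean above the limit of background, where 87.6% of all genes lay, and 0 had an unadjusted p under 0.05, against 13.3% of all genes. Ptprc, the common leukocyte antigen, read 58.5 to 74.7 in Hmga2 KO and 60.5 to 69.5 in wild type, and Adgre1, a macrophage marker, 50.9 to 63.3 in Hmga2 KO and 47.0 to 64.8 in wild type. Both were near background, but 8 of the 23 markers had a mean above 100. Among these, Fcgr3 read 222 to 243 in Hmga2 KO and 188 to 258 in wild type. Cd4 read 145 to 165 in Hmga2 KO and 127 to 148 in wild type. Laptm5, a lysosomal protein of leukocytes, had 723, 291, 287 and 393 in Hmga2 KO and 446, 504 and 510.5 in wild type. Of 10 endothelial markers 9 lay above background and 0 had an unadjusted p under 0.05, again against 13.3% of all genes, with sums of 1144 to 1212 in Hmga2 KO and 1169 to 1369 in wild type.

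Chemokine receptors were counted from a list of 18 genes, of which 16 were measured and 10 had a mean above background. By limma 0 passed, and 1 had an unadjusted p under 0.05, against 13.3% of all genes. This was Ackr2, a scavenger of CC chemokines, with 145, 107, 145 and 115 in Hmga2 KO replicates 1 to 4, against 88.2, 105 and 91.4 in wild type replicates 1 to 3. Its groups did not overlap (difference 0.42, SE 0.14, adjusted p = 0.298), although replicate 2 of each group nearly met, and among females the difference was 0.22. Ackr3, which takes up Cxcl12, had 6684, 6138, 8333 and 6657 in Hmga2 KO and 5999, 6278 and 5892 in wild type (difference 0.19, adjusted p = 0.492).

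Genes of JAK, STAT and SOCS proteins carry the signal of most of these receptors. Of 22 measured 0 passed by limma, and at an unadjusted p under 0.05 stood 3 (13.6%, against 13.3% of all genes), 2 higher and 1 lower. For both directions together this share is near the background. Among all genes 2.99% were higher and 10.3% lower at that p. Cish, a feedback inhibitor induced by STAT5, had 452, 439.5, 662 and 632 in Hmga2 KO replicates 1 to 4, against 357, 335 and 260.1 in wild type replicates 1 to 3. The groups did not overlap, and the difference was 0.77 (SE 0.18, adjusted p = 0.230), with 0.74 among females. Socs3, the inhibitor that gp130 signalling induces through STAT3, had 294, 305, 284 and 273 in Hmga2 KO and 362, 352 and 422 in wild type. Its groups did not overlap either, in the opposite direction, and the difference was -0.38 (SE 0.0987, adjusted p = 0.259), with -0.39 among females. Socs2 had 5856, 6713, 7610.1 and 6125 in Hmga2 KO and 5113, 5919 and 5177 in wild type (difference 0.28, adjusted p = 0.353).

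For NF-kB, 28 genes were measured and 0 passed by limma. At an unadjusted p under 0.05 stood 3, each lower in Hmga2 KO (10.7%, near the 10.3% of all genes that were lower). Traf2, an adaptor of TNF receptors, had 231, 259, 230.1 and 199.8 in Hmga2 KO and 281, 279 and 284 in wild type (difference -0.30, adjusted p = 0.307). Nfkb2, a precursor subunit, had 377, 436, 369 and 368 in Hmga2 KO and 438, 478 and 456 in wild type (difference -0.24, adjusted p = 0.343), and the inhibitor gene Nfkbib had 319, 430.3, 316 and 346 in Hmga2 KO and 456, 520.4 and 383 in wild type (difference -0.36, adjusted p = 0.342). The groups did not overlap for Traf2 and Nfkb2. The list median was -0.11, against -0.07 for all genes.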

How the data were processed

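Per the labels' protocols, total RNA of 7 myoblast samples (4 Hmga2 KO, 3 wild type) was biotin-labelled and hybridised to Affymetrix arrays. The authors deposited intensities, on a linear scale, of 45101 probe sets. Every column has a median of 150, and how probes were summarised is not stated in the labels. The platform table gives 1 gene for 34945 probe sets, several for 932 (left out) and none for 9160, besides 64 controls. RefSeq (GRCm38.p6) held 34741 of the 34945, and 0 symbols changed.

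A gene is represented by its brightest probe set, which left 18193 genes. Their log2(intensity + 1) values, not normalized further, went into limma 3.58.1 (lmFit, eBayes; R 4.3.3), and p-values over the 18193 genes were adjusted by Benjamini-Hochberg. Male and female Hmga2 KO were contrasted in a fit with 3 groups. The labels call the samples biological replicates but do not say whether each is a separate animal or culture. The p-values therefore weigh differences against the spread between these samples, whose small number limits the precision. Any 2 samples differed by a median absolute log2 difference of 0.145 to 0.235, so none was counted as a duplicate.

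The members and lists were chosen with earlier results of these data known. Values by sample are given for members with an unadjusted p under 0.05 or groups that do not overlap, for the member with the highest mean in each role group, and for others chosen after their values were seen. Of the pathway lists up to 3 genes above background with the smallest p are named. Marker lists are given as sums and counts, and the marker genes named were chosen after their values were seen. The fits were tested on simulated data. Settings varied were a sex term, females only, a replicate block, single samples left out, quantile normalization, removal of the dimmest 40% of genes, averaging of probe sets, a pseudocount of 16, a trended robust prior and array weights.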

Additional observations from a re-analysis of the deposited data

Results flagged for a closer look

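Within the 4 Hmga2 KO samples, replicate 1 stood apart for 2 of the 40 members by the ratio of its gap to the group's range on the log2 scale, where chance marks about 1 group in 20. A count of this size is what chance alone would give. For Csf1 the ratio was 0.907, with 7219 in replicate 1, while the rest of the group read 5914 to 6024. For Il6ra, a dim gene, it was 0.936, with 92.7 in replicate 1 and 69.2 to 70.5 in the others.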

How the results depend on the processing

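Of the 40 members, 0 passed between the genotypes under every alternative except the replicate block, with 1 (Il13ra1, difference 0.96, adjusted p = 0.0381). Same-numbered samples deviated from their group means with correlations of 0.31, 0.37 and -0.18. The labels do not say whether the numbers pair the samples, and these mixed correlations cannot settle it. With that block 11 members had an unadjusted p under 0.05 in place of 6, and 99 genes passed in place of 5. Leaving out single samples gave 2 to 17 genes past the threshold, and 4 to 8 members with an unadjusted p under 0.05. The lowest count of genes, 2, came without wild type replicate 3, the highest, 17, without Hmga2 KO replicate 2, and 3 passed without wild type replicate 1 or Hmga2 KO replicate 3. The median difference of the 37 members above background, 0.06, was -0.075 with a sex term and in females alone. In both fits Ccl9 turned to -0.11 and Cx3cl1 to -0.018, and 12 of all 40 members changed sign. Ccl9 ranged from -0.084 to 0.23 and Clcf1 from -0.11 to 0.32 with single samples left out, and Clcf1 was -0.053 with the block. Cxcl12 was 0.094 with the mean of all probe sets. The cause was not tested for these. These alternatives were run gene by gene for 16 members, and 12 of them kept their sign under all, Ptgs2 between 0.65 and 1.17 and Il1r1 between -0.66 and -0.27. Between the sexes 0 to 1 members passed with single samples left out, the 1 being Tnfsf11 without wild type replicate 1. The members above background numbered 37, and 25 with a limit of 100, or 33 when every sample had to pass and 37 with the mean of all probe sets. Signal near the floor of 33.2 to 36.7 limits what can be seen for the dim chemokines.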
